A study of Mus musculus with 2 samples.

Results

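Pancreatic islets of newborn mice were examined for 42 genes that supply amino acids and charge transfer RNAs, most of them known targets of the transcription factor ATF4. The genes were taken by symbol: 11 encode enzymes of amino acid synthesis and one-carbon metabolism, 5 amino acid transporters, 18 cytosolic aminoacyl-tRNA synthetases, and 8 stress and growth regulators of the same programme. Of the 42 genes, 39 were matched by symbol to a probe set, 77 probe sets in all, among 12393 named genes and 22690 probe sets. The expression of Dars, Mars and Pycr1 was not analysed here.

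RNA was measured on Affymetrix mouse 430A arrays, on which a set of short oligonucleotides (a probe set) reports 1 transcript as a signal intensity. There was 1 array of wild-type islets (mixed strains and mixed sexes) and 1 array of islets from PERK knockout mice, both taken at 2 days of age and isolated with collagenase P. Neither the strain and sex of the knockout pups nor its allele, the cells that carry it or any pooling of pups is given in the sources used here. The study asks how islets differ when PERK is missing. A single array per genotype leaves no spread between animals, no p-value was computed, and every ratio below compares these 2 libraries only.

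PERK, encoded by Eif2ak3, is a kinase in the membrane of the endoplasmic reticulum that responds to unfolded protein by phosphorylating the translation factor eIF2 alpha. This lowers general protein synthesis but raises translation of ATF4, which pairs with C/EBP proteins and switches on genes for amino acid synthesis, amino acid import and tRNA charging. The same factor can be induced through the other eIF2 alpha kinases, among them GCN2, which senses uncharged tRNA. Beta cells make insulin at a high rate, and PERK loss is known to cause early diabetes in mice and in people.

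Signals at or under 39.8, which is the 40th percentile of all signals pooled over the arrays, were treated as a floor, and a gene was called measured when its chosen probe set, that with the highest mean signal, was above the floor on both arrays. Ratios are log2 of knockout over wild type, and 0 is called equality. Of the 39 genes, 34 were measured, 1 (Gpt2) was above the floor on the knockout array only, and 4 (Cth, Slc7a1, Slc7a3 and Slc7a11) were at the floor on both. The error given is the disagreement between probe sets of the same gene, an SD of 0.26 on the log2 scale over 2597 genes. It covers probe error and leaves out animals, litters and RNA preparation. Signals of different probe sets are not on a common scale, so only the 2 arrays are compared and not gene with gene.

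Eif2ak3, the targeted gene, went from 118 to 58.7, 2.01-fold lower, on the only 1 of its 3 probe sets above the floor. Islet hormone genes were present on both arrays, with Ins2 at 5652 and 6163 and Gcg at 5662 and 5718, and so were acinar enzymes of the surrounding exocrine pancreas, with Cpa1 at 4800.0 and 5271. Over all 8133 measured genes the median log2 ratio was 0.03, and 45.1% of genes were below equality. Of these genes, 0.652% were at least 2-fold lower and 0.516% at least 2-fold higher, while 2.95% were at least 1.5-fold lower and 4.19% at least 1.5-fold higher.

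As a whole, the enzymes of amino acid synthesis and tRNA charging had slightly lower signals in the knockout library, and the stress regulators did not share that direction. Of the 34 measured members, 22 (64.7%) lay below equality, beside 45.1% of all measured genes, and their median log2 ratio was -0.11. The median was -0.25 for amino acid synthesis (7 of 8 below), -0.05 for transport (1 of 2), -0.11 for tRNA charging (12 of 16) and 0.19 for the stress and growth regulators (2 of 8). No measured member was 2-fold apart, and 2 were at least 1.5-fold apart, beside 7.14% of all measured genes: the tyrosyl-tRNA synthetase gene Yars, lower, and the lipoprotein receptor gene Vldlr, higher. Set against the probe set error, 18 of the 34 lay within 1 SD of equality, beside 63.1% of all measured genes. Beyond 2 SD lay 4 of the 34, beside 10.3% of all measured genes. In RNA from whole islets, fewer cells of a type and less RNA per cell cannot be told apart.

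**Figure D1:**
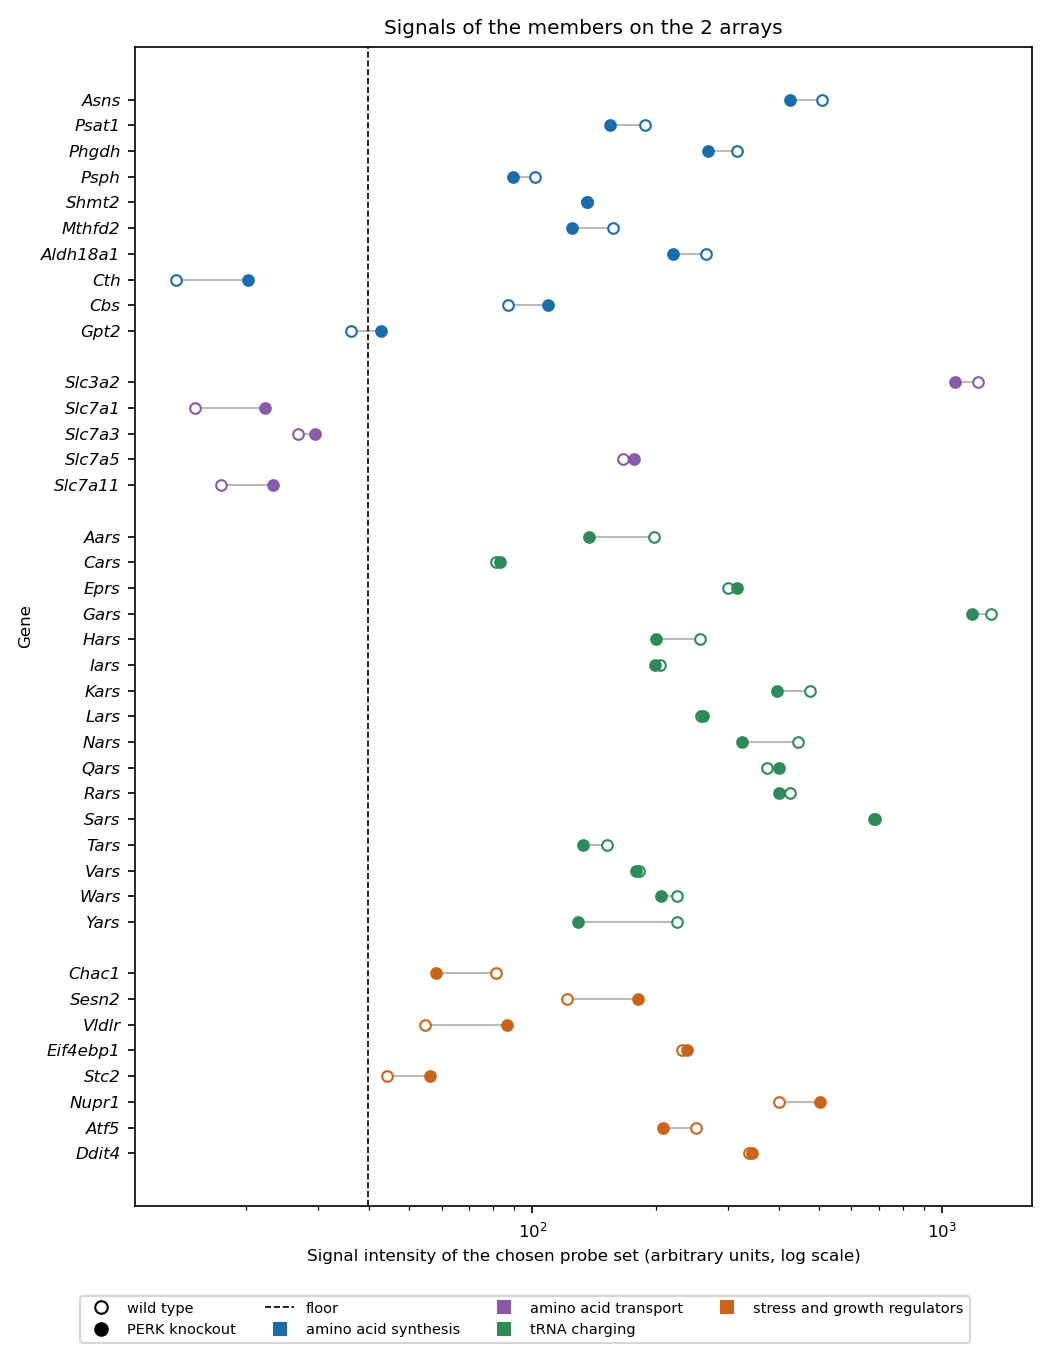
Signal intensity (log axis, arbitrary units) of the chosen probe set of each of the 39 genes on the wild-type array (open circles) and the knockout array (filled circles), grouped by role. The dashed line is the floor of 39.8; positions of different genes are not comparable. The filled circle lies left of the open one for 7 of 8 measured synthesis genes and 12 of 16 measured synthetase genes.

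Amino acid synthesis was the group with the lowest median. Asns, asparagine synthetase, which makes asparagine from aspartate and is a standard readout of ATF4, went from 509 to 426 (1.20-fold lower), and its second probe set went from 247 to 186 (log2 -0.41). Both probe sets were lower in the knockout library, by 0.26 and 0.41 on the log2 scale. The 300 bases around its start site (RefSeq, GRCm38.p6, chr6:7693160-7693459, minus strand, printed as transcribed) are shown because they hold the element through which ATF4 is known to act, in capitals just upstream of the start.
Asns: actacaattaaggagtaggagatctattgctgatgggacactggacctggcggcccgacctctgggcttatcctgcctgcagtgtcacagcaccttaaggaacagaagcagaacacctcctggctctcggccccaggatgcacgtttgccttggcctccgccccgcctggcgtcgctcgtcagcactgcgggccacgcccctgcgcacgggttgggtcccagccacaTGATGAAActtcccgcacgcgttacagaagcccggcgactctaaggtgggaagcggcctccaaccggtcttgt

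The serine branch, which turns a glycolytic intermediate into serine, glycine and one-carbon units, was below equality at each of its 5 steps. Phgdh, the first enzyme of the branch, had 4 probe sets: the chosen one went from 316 to 268, and the others from 328 to 209, from 297 to 220.0 and from 286 to 175. Its log2 ratios were therefore -0.24, -0.65, -0.43 and -0.71, and the chosen probe set gave the smallest difference of the 4. All 4 have names ending in _x_at, and Phgdh has no ratio when such probe sets are left out. Psat1, the phosphoserine aminotransferase, went from 189 to 154 (1.22-fold lower) and on its second probe set from 113 to 82.6 (log2 -0.45). The last step to serine, catalysed by the product of Psph, had signals of 102 and 89.6 on 1 probe set (log2 -0.18).

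Mitochondrial one-carbon enzymes came next in the branch. Mthfd2, a methylenetetrahydrofolate dehydrogenase of mitochondria, went from 157 to 125 (1.25-fold lower) and on its second probe set from 153 to 100.1 (log2 -0.62). Shmt2, the mitochondrial serine hydroxymethyltransferase, had signals of 136.2 and 135.7 (log2 -0.01), and its second probe set went from 110.5 to 92.5 (log2 -0.26). A further probe set of Shmt2 ran the other way, from under the floor (37.4) to 46.7, at least 1.17-fold higher. Over these 5 genes, the 11 probe sets above the floor on both arrays all gave a log2 ratio below 0 (median -0.33), beside 44.8% of the 11893 such probe sets with a gene name; the count leaves out that probe set of Shmt2. It includes every probe set of Phgdh and the chosen one of Shmt2, which are _x_at, and the second of Psat1, which is _s_at. The serine genes were set apart as a branch after their values were seen.

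The remaining synthesis genes did not share a direction. Aldh18a1, whose product starts proline synthesis from glutamate, went from 265 to 221 (log2 -0.26). Its 3 other measured probe sets gave log2 ratios of -0.04, -0.49 and 0.54, so probe sets of this gene did not agree on a sign. The probe set at 0.54 was close to the floor in wild type (41.7 to 60.8). Only the probe set at -0.49 was not _x_at. Cbs, the first enzyme of transsulfuration from homocysteine to cysteine, was higher in the knockout library on both probe sets, from 87.0 to 108.9 (1.25-fold) and from 45.3 to 53.0 (log2 0.23). Cth, the next enzyme of that path, was at the floor in both libraries, and Gpt2, the mitochondrial alanine aminotransferase, went from under the floor to 42.8, at least 1.08-fold higher.

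Transport was the least informative role because 3 of 5 genes were at the floor. Slc3a2, the heavy chain shared by several amino acid exchangers, went from 1223 to 1072 (log2 -0.19). Its partner Slc7a5, the light chain of the large neutral amino acid exchanger, went from 167 to 177 (log2 0.09). The cationic transporters Slc7a1 and Slc7a3 and the cystine transporter Slc7a11 had signals between 15.0 and 29.5 on the 2 arrays, and nothing can be said about their ratio.

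**Figure D2:**
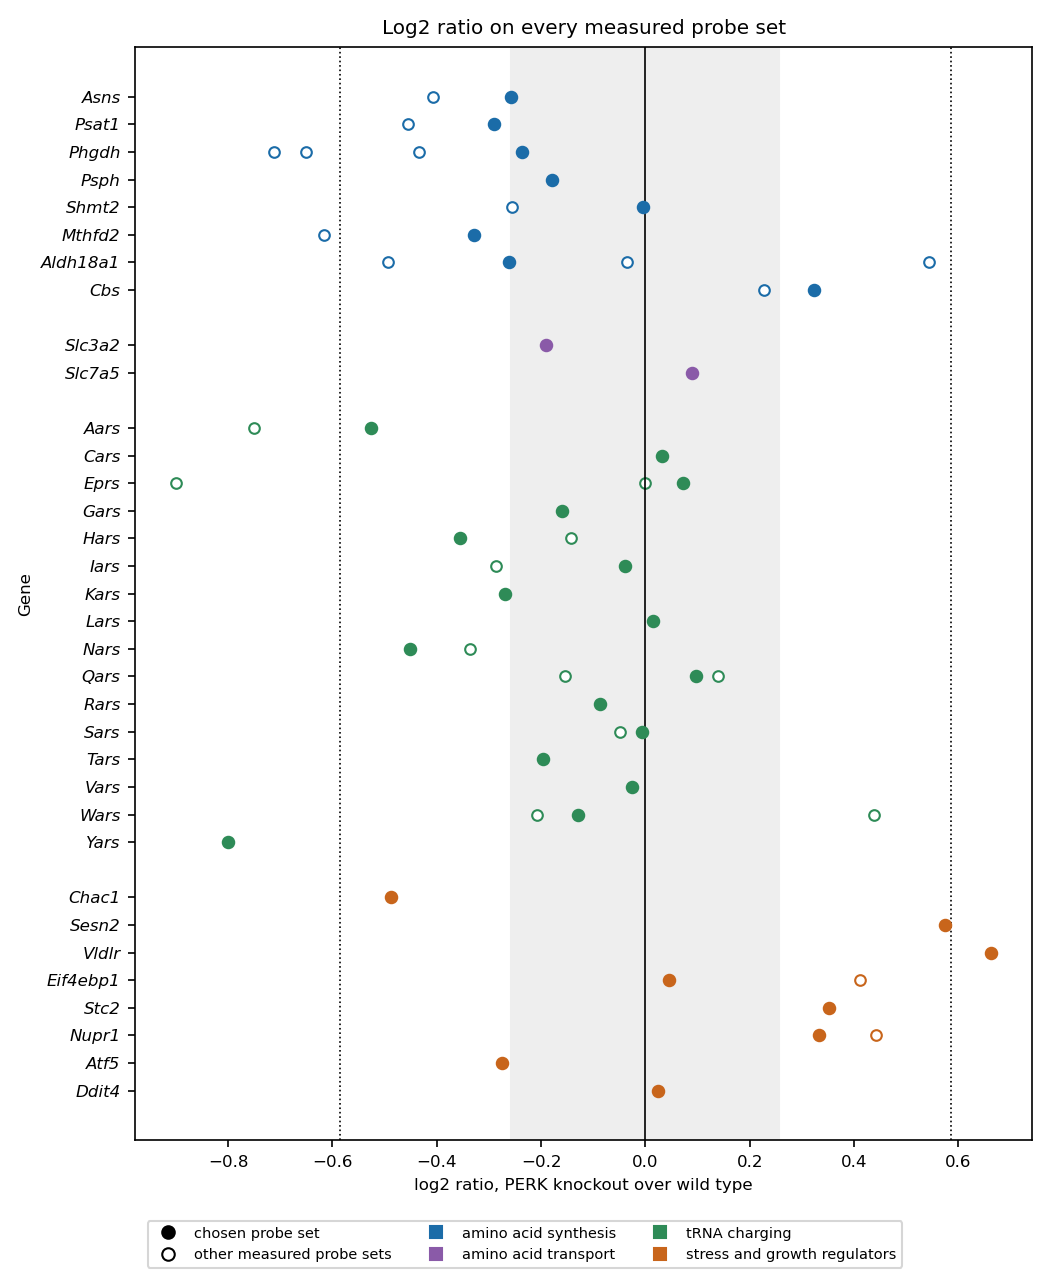
Log2 ratio of knockout over wild type (x axis) on every measured probe set of the 34 measured genes. Filled circles are the chosen probe sets and open circles the others; the grey band spans 1 SD of probe set disagreement (0.26) on either side of 0 and the dotted lines mark 1.5-fold. The points of Asns, Psat1, Phgdh, Mthfd2, Aars, Hars and Nars lie left of 0 on all their probe sets, and those of Cbs and Nupr1 lie right of it.

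Among the aminoacyl-tRNA synthetases, which attach each amino acid to its tRNA, the lower ratios were concentrated in a few enzymes. Yars (tyrosine) had the lowest ratio of all members, from 225 to 129, 1.74-fold lower, and 1.13% of all measured genes had a lower ratio. It was represented by 1 probe set, so no second reading exists. Aars (alanine) went from 198 to 137 (1.44-fold lower), and its second probe set from 178 to 106 (log2 -0.75). Nars (asparagine) went from 445 to 325 (1.37-fold lower) and on its second probe set from 425 to 337 (log2 -0.34). Hars (histidine) went from 256 to 200.0 (1.28-fold lower) and from 179 to 162 on its second probe set (log2 -0.14).

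For the other 12 synthetase genes the chosen probe sets ranged from -0.27 to 0.10 on the log2 scale, about the span of the probe set error. Kars (lysine) went from 477 to 396, Tars (threonine) from 152 to 133 and Gars (glycine) from 1317 to 1179, with log2 ratios of -0.27, -0.20 and -0.16. Wars (tryptophan) had -0.13 on the chosen probe set and -0.21 and 0.44 on its other measured ones, and its last probe set went from under the floor to 45.2, at least 1.14-fold higher. Rars (arginine), Iars (isoleucine), Vars (valine) and Sars (serine) lay between -0.09 and -0.01, with -0.29 on the second probe set of Iars. Lars (leucine), Cars (cysteine), Eprs and Qars (glutamine) lay between 0.02 and 0.10. Eprs, a single protein that charges both glutamate and proline tRNAs, was the least settled gene: its chosen probe set went from 300.0 to 315, another went from 235 to 126 (log2 -0.90), and the last had 62.0 on both arrays.

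A textbook division of the synthetases was applied after their values were seen. Some synthetases are held with 3 scaffold proteins in the multi-tRNA synthetase complex, and the others act outside it. The 6 measured genes of the complex (Eprs, Iars, Kars, Lars, Qars and Rars) had a median log2 ratio of -0.01 with 3 below equality and a range of -0.27 to 0.10. The 10 genes outside it had a median of -0.18 with 9 below equality, from -0.80 for Yars to 0.03 for Cars. On the chosen probe sets the lowest 4 synthetase genes were all outside the complex, but the ranges of the 2 sets overlapped. Over all measured probe sets, 6 of 11 in the complex and 14 of 16 outside it were below equality, and the lowest of all, the second of Eprs at -0.90, belonged to the complex. Because this division was made with the ratios known, it has no test.

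The promoter window of Yars, the synthetase gene with the lowest ratio, is printed in full (chr4:129189653-129189952, plus strand of GRCm38.p6). It holds a match to the letters of the ATF4 element, in capitals and described further down.
Yars: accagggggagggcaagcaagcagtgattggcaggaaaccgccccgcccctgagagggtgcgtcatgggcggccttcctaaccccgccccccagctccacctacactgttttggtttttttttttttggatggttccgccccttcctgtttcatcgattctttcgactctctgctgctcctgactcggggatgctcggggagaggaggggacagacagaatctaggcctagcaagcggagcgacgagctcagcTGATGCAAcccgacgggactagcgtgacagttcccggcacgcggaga

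Agreement between probe sets gave a second view of the same genes. Of the 17 members with at least 2 measured probe sets, 10 were below equality on all of them, beside 23.2% of the 2597 genes with as many, and 3 were above equality on all of them, beside 30.3%. By role, all probe sets were lower for 5 of 7 synthesis genes and 5 of 8 synthetase genes, and all were higher for 1 and 0 of them. Both regulator genes with 2 measured probe sets, Nupr1 and Eif4ebp1, were higher on both. Over all measured probe sets of the members, 39 of 58 were below equality, with a median of -0.16. Another 4, of Shmt2, Gpt2, Wars and Sesn2, were above the floor in the knockout library only, and 0 in the wild-type library only. The same split over all named probe sets was not counted, so nothing can be read from these 4. At least 1.5-fold lower were 6 of these 58, beside 2.82% of named probe sets, and 1 was at least 1.5-fold higher, beside 4.21%. The 6 were 2 of Phgdh and 1 each of Mthfd2, Aars, Eprs and Yars. Probe sets of the same gene share a transcript and an RNA sample, so these counts are not independent readings of the genotype.

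**Figure D3:**
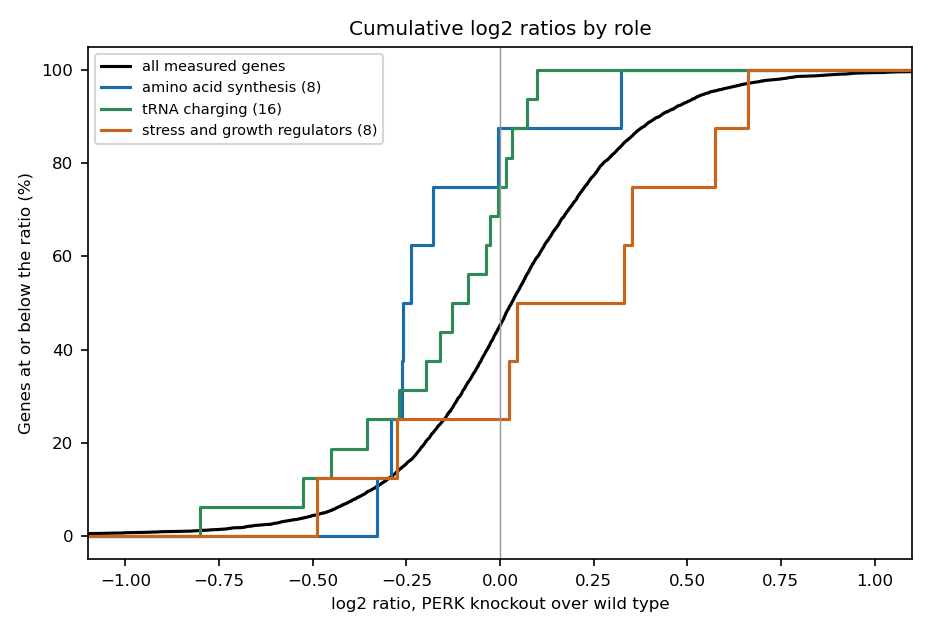
Cumulative share of genes (y axis, %) at or below a given log2 ratio of knockout over wild type (x axis) for all 8133 measured genes (black) and for the measured members by role. Transport, with 2 measured genes, is not drawn. The synthesis and synthetase curves lie left of the black curve around 0, with 87.5% and 75% of genes below equality against 45.1%, and the regulator curve lies right of it there, with 25%.

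The stress and growth regulators spread in both directions. Vldlr, the very low density lipoprotein receptor, went from 54.7 to 86.6 (1.58-fold higher), and 2.83% of all measured genes had a higher ratio, but its 3 other probe sets did not exceed the floor on either array. Sesn2, a stress-induced inhibitor of the growth kinase mTORC1, went from 121 to 181 (1.49-fold higher), and its second probe set went from under the floor to 76.8, at least 1.93-fold higher. Nupr1, a small chromatin protein also strongly expressed in stressed acinar cells, went from 399.5 to 503 (1.26-fold higher) and from 236 to 320.0 on its second probe set (log2 0.44). Stc2, a secreted glycoprotein of the stanniocalcin family, went from 44.1 to 56.3 (log2 0.35), close to the floor on both arrays.

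Other regulators were level or lower. Chac1, which breaks down glutathione and is one of the ATF4 targets used most often as a marker of the pathway, went from 81.6 to 58.2 (1.40-fold lower, 1 probe set). Atf5, a transcription factor downstream of ATF4, went from 251 to 208 (log2 -0.27). Ddit4, another mTORC1 inhibitor, had signals of 338 and 343 (log2 0.02). Eif4ebp1, which encodes the translation repressor 4E-BP1, had log2 ratios of 0.04 on the chosen probe set and 0.41 on its second.

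Nupr1 stands opposite Asns and Yars in direction and also holds a match, so its window (chr7:126625421-126625720, minus strand) is shown for comparison.
Nupr1: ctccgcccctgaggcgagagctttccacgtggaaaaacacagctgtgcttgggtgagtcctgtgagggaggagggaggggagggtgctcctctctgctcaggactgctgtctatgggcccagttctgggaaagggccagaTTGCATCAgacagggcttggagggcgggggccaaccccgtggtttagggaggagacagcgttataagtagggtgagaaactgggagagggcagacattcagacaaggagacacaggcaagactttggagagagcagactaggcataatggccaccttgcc

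The element searched was TGATGNAA on either strand, the core of the C/EBP-ATF response element, in RefSeq windows of GRCm38.p6 that span 250 bases before to 50 after each start site. Windows of 30 members were searched. The element was present for 10 of the 30 members (33.3%), beside 4.51% of the 27024 genes searched and 3.97% of their 32850 windows. The members are a list of known ATF4 targets together with the cytosolic synthetases, so this share describes the list and not the islets. The cAMP response element TGACGTCA, which cannot match the same 8 bases, was found for 0 of the 30 members and in 1.79% of all windows.

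Each match is printed below with 11 bases on either side, as transcribed, with the 8 matched bases in capitals. A match read on the opposite strand appears as its reverse complement. Matches of measured genes come first, in order of the gene's log2 ratio, followed by 3 of genes without a measured ratio.
Yars, plus strand, chr4:129189895-129189924: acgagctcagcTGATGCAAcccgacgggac
Chac1, plus strand, chr2:119351038-119351067: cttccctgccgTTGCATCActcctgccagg
Asns, minus strand, chr6:7693214-7693243: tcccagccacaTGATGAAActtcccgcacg
Tars, minus strand, chr15:11399655-11399684: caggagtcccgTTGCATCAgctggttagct
Gars, plus strand, chr6:55037960-55037989: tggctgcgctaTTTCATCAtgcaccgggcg
Iars, plus strand, chr13:49682126-49682155: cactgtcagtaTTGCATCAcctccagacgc
Nupr1, minus strand, chr7:126625562-126625591: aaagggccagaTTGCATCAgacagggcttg
Vldlr, plus strand, chr19:27216809-27216838: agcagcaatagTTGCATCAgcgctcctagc
Slc7a11, upstream match, minus strand, chr3:50443661-50443690: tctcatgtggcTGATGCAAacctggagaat
Slc7a11, downstream match, minus strand, chr3:50443642-50443671: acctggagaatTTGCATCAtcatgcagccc
Pycr1, minus strand, chr11:120643833-120643862: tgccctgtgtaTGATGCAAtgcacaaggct

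The first matched base lay 4 bases into the Yars transcript, counting the start site as base 1, and 23 bases before the start of Asns. In Vldlr and Chac1 it lay farther out, at positions -200 and -193. Of the 8 measured members with a match, 6 were below equality, with a median log2 ratio of -0.18 and a range of -0.80 to 0.66. Of the 16 measured members with a window and no match, 10 were below equality, with a median of -0.09 and a range of -0.33 to 0.57. The second range lay inside the first, and the lowest and the highest ratio of all members, those of Yars and Vldlr, both belonged to searched genes with a match. Some measured members were in neither set, among them Nars and Hars, with log2 ratios of -0.45 and -0.36. The ranges therefore leave out some of the lowest ratios, and no link between a match and a ratio can be read from them. A match is a description of letters and not evidence of binding in islets.

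**Figure D4:**
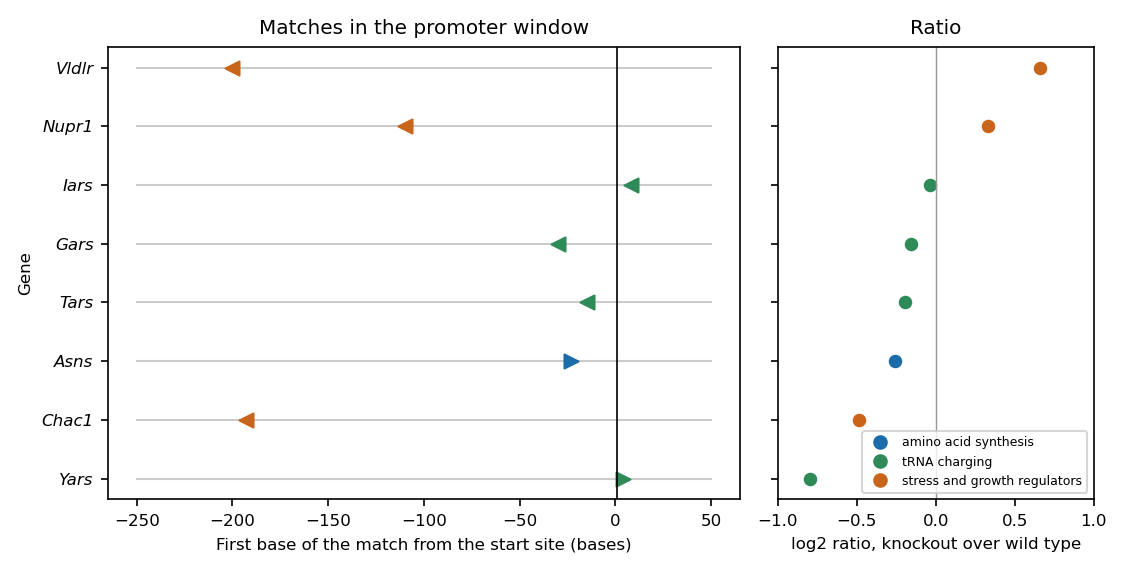
Left, position of the first base of each C/EBP-ATF element match relative to the start site (x axis, bases; triangles point along the strand of the match) for the 8 measured genes with one, within the window of 250 bases before to 50 after the start. Right, the gene's log2 ratio of knockout over wild type; 6 of the 8 genes lie below 0.

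Genes upstream of and beside the members were taken from lists of the same pathway. Atf4 itself went from 1201 to 967 (log2 -0.31) and from 423 to 405 on its second measured probe set (log2 -0.06). ATF4 is controlled mainly at translation, which an array does not measure. Ddit3, the ATF4 partner and target CHOP, went from 108 to 170 (1.57-fold higher, 1 probe set), whereas Trib3, a pseudokinase induced by ATF4 and CHOP, went from 132 to 97.6 (1.36-fold lower) on its chosen probe set and from under the floor (39.2) to 46.4, at least 1.17-fold higher, on its second. Of 15 measured genes on the list of other ATF4 pathway regulators, 4 were below equality, the median was 0.07 and 1 (Ddit3) was at least 1.5-fold apart. The autophagy genes Sqstm1 and Map1lc3b of that list had log2 ratios of 0.18 and 0.07. The other eIF2 alpha kinases were dim: Eif2ak1 went from 75.8 to 94.1 (at least 1.51-fold higher on its second probe set, which was under the floor in wild type) and Eif2ak2 from 54.1 to 56.1, and Eif2ak4, which encodes GCN2, went from under the floor to 46.6.

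Amino acid transporters outside the member list had a median log2 ratio of -0.18 over 11 measured genes, 8 of them below equality. Slc38a1, a sodium-coupled glutamine transporter, was 1.64-fold higher (53.0 to 86.7). Slc38a4, a related transporter, went from 394 to 335 and on its second probe set from 273 to 160 (log2 -0.77), and the taurine transporter gene Slc6a6 was level, at 417 and 424. Of 5 measured serine, glycine and one-carbon enzymes outside the list, 3 were below equality, with a median of -0.01. Gcsh, a subunit of the mitochondrial glycine cleavage system, had signals of 684 and 660 and Ahcy, which hydrolyses S-adenosylhomocysteine, of 345 and 343. The cytosolic enzymes parallel to the mitochondrial ones, Shmt1 and Mthfd1, had log2 ratios of 0.05 each.

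Immune markers and genes of cell division differed between the libraries more than the members did. Of 12 measured immune markers, 12 were above equality, 10 of them at least 1.5-fold, and the summed signal of all 15 on the list went from 1568 to 4126.5. The neutrophil gene S100a8 had the highest ratio on that list, from 98.9 to 789. Much of the rise in the sum came from S100a8, S100a9 (121 to 778) and Ngp (87.3 to 421), while Csf1r was level (309 to 324). The summed signal of 9 proliferation genes was 4596 and 2292, all 9 below equality with a median log2 ratio of -1.41.

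Islet and acinar markers differed among themselves. The 9 islet endocrine genes summed to 38933 and 38897, with a median of -0.13, but the sums are carried by the very bright probe sets of hormones and of secretory granules. Ins2 lay within 1 SD of equality by the probe set error (log2 0.12), whereas the beta cell genes Slc2a2, Nkx6-1 and Pdx1 were lower. Slc2a2, the glucose transporter of the beta cell, went from 860.4 to 464.9 (1.85-fold lower, more than any member on its chosen probe set). The beta cell transcription factor genes Nkx6-1 and Pdx1 went from 488 to 326 and from 310.2 to 245.5 (log2 -0.58 and -0.34). The 15 acinar markers with a probe set summed to 38079 and 41237, again carried by very bright probe sets, and 1 of them (Rbpjl) was at the floor. Their median log2 ratio was 0.10 over 14 measured genes, of which 10 lay above equality and 4 were at least 1.5-fold higher. These were the pancreatic phospholipase gene Pla2g1b (89.2 to 169), Reg1 (1799 to 3240), the chymotrypsin-like gene Ctrl (346 to 558) and the zymogen granule gene Zg16 (668 to 1064).

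Mesenchymal, endothelial and duct markers had medians of -0.02, -0.03 and 0.00, closer to 0 than the -0.11 of the members. Single genes on these lists were farther apart, with the smooth muscle actin gene Acta2 1.51-fold lower and the duct list's Tspan8 2.13-fold higher. Not every marker was above the floor in both libraries: the immune markers Ptprc, C1qc and H2-Ab1 were under it in wild type only. The part of these differences in the ratios of the members was not tested.

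**Figure D5:**
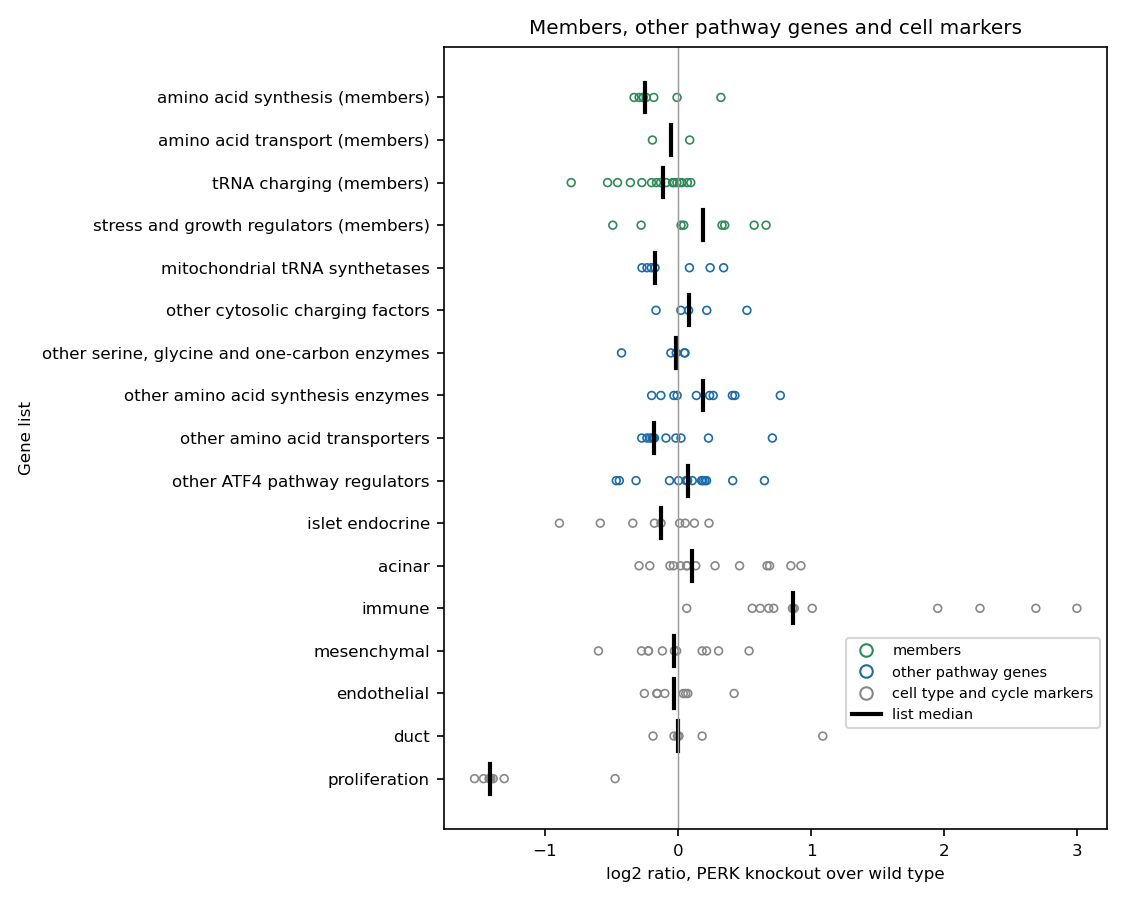
Log2 ratios of knockout over wild type (x axis) of each measured gene (circles) in the 4 groups of members, 6 lists of other pathway genes and 7 lists of markers, with the median of each list as a black bar. The medians of synthesis (-0.25) and charging (-0.11) are small beside those of the proliferation (-1.41) and immune (0.87) lists.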

How the data were processed

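The authors deposited 1 linear signal intensity per probe set and array. The submitters' processing notes name GCOS 1.02, Affymetrix's software, and no source used here states the background correction, the summary method or any detection call. The 2% trimmed mean of the deposited intensities was 150.1 on both arrays, so they had been scaled alike, and the factor applied to the knockout array was 1.00. Of 22690 probe sets, 20380 had 1 gene symbol in the platform annotation, 691 several, 1555 none, and 64 were Affymetrix controls. Of 12393 genes, 8133 were measured, 693 were above the floor on 1 array and 3567 on neither. A bound divides the brighter signal by the floor. No test was possible, and the number of arrays limits the precision. The procedure, in pandas 2.3.3 and numpy 2.4.6, was tested on simulated data. The planted changes were larger than that of any member, so the simulation does not cover differences of the size described here.

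The promoter of 1 member is not reported here. The members and the lists were chosen with earlier results of these data known. All members may be named. From each other pathway list came measured genes at least 1.5-fold apart (at most 4 in each direction) or, if there were fewer than 2, also the 2 genes with the brightest probe sets, and always Eif2ak3, Atf4, Ddit3 and Trib3. Eif2ak2, Eif2ak4, Shmt1, Mthfd1, Hars2, Farsa, Farsb, Eef1e1, Asl and Arg1, and all cell type markers in the text were named after their values were seen. Alternatives were 3 other scalings and the deposited scale, a floor at the 25th or the 60th percentile, a pseudocount of 16, and 3 other ways to choose probe sets.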

Additional observations from a re-analysis of the deposited data

Results flagged for a closer look

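The second probe set of Sesn2 entered no comparison of chosen probe sets. It drew attention because its signal was at the floor in the wild-type library and 76.8 in the knockout library, at least 1.93-fold higher, in the same direction as the chosen probe set (1.49-fold).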

How the results depend on the processing

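Across 10 alternatives, the medians of synthesis (-0.33 to -0.19), tRNA charging (-0.18 to -0.09) and the regulators (0.045 to 0.38) kept their sign, while that of transport, over 2 or more genes, ran from -0.08 to 0.09. Between 20 and 24 members were below equality, of a total that changed with the setting, and 0 were 2-fold apart in all of them. With the floor at the 60th percentile they were 20 of 28, beside 47.9% of all measured genes. With the pseudocount they were 22 of 39, beside 44.7% of all genes. The count of members at least 1.5-fold apart was 1 with quantile or loess normalisation, with the floor at the 60th percentile and with the pseudocount, and 6 with the second brightest probe sets. The median of all members was -0.024 with the pseudocount, which keeps all 39 genes, and -0.185 without _x_at and _s_at probe sets. That of the regulators was 0.045 with the floor at the 60th percentile, where 5 genes remained measured, 0.045 without those probe set types, and 0.38 with the second brightest ones. Of 34 genes, 28 kept their sign throughout. Part of this was fixed in advance, because the deposited scale and the other floors leave the ratio of a measured gene all but unchanged. For the 17 members with 1 measured probe set, taking the second brightest or the median probe set also returns the same ratio. Median centring, which moves all ratios by the 0.03 median, put 24 members below equality. No paired analysis was possible because each genotype had 1 array, and for the same reason no replicate could be left out.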

Other observations

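Charging of mitochondrial tRNAs uses a separate set of synthetases, and these did not share 1 direction. Of 7 measured genes, 4 were below equality, with a median log2 ratio of -0.17 and a range of -0.27 to 0.34. Rars2, the mitochondrial arginine enzyme, went from 524 to 456, and Fars2, the phenylalanine enzyme, from 282 to 234, while Hars2, the histidine enzyme, went from 74.2 to 94.2. The cytosolic phenylalanine enzyme, which has 2 kinds of subunit, had log2 ratios of 0.02 for Farsa and -0.16 for Farsb, with -0.38 and -0.35 on the other measured probe sets of Farsb. The scaffold genes of the multi-tRNA synthetase complex were above equality on their chosen probe sets: Eef1e1 went from 209 to 299 (log2 0.52), Aimp1 from 504 to 586 (log2 0.22) and Aimp2 from 336 to 356 (log2 0.08, with -0.08 on its second).

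Other enzymes of amino acid metabolism, outside the member list, had a median log2 ratio of 0.19 over 10 measured genes, 6 of them above equality. Bcat2, the mitochondrial branched-chain aminotransferase, went from 75.6 to 129 (1.71-fold higher, 1 probe set). Glud1, glutamate dehydrogenase, which feeds glutamate into the citrate cycle and is active in beta cells, went from 872 to 1049 and on its second probe set from 690 to 881 (log2 0.27 and 0.35). Glul, glutamine synthetase, was level at 1026 and 1006. The urea cycle genes Asl and Arg1 went from 91.0 to 123 and from 176 to 234 (log2 0.43 and 0.41).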
